A study of Mus with 3 samples.

Results

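A set of 10 chemokine genes was followed in the hippocampus of mice injected with an amyloid β fragment and treated with an oil from a distilled spirit. They were Ccl2, Ccl3, Ccl4, Ccl5, Ccl6, Ccl9, Ccl12, Cxcl10, Cxcl12 and Cx3cl1, taken by gene name from 23626 named genes on the array, and 12 of the 39429 gene probes carried those names. Their signal was highest after oil and peptide for 6 of the 7 genes measured on all 3 arrays, as it was for 36.9% of all genes so measured. Of the pair that the normal brain makes constitutively, Cxcl12 was lowest there and Cx3cl1 was 1.14-fold higher, a direction that turned when the arrays were scaled to spike-in controls.

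Chemokines are small secreted proteins that guide migrating cells along a gradient by binding G protein-coupled receptors. Most CC chemokines and Cxcl10 are induced by inflammatory signals such as NF-κB activation and interferon, and in the brain microglia, astrocytes, vessel cells and infiltrating leukocytes can make them. Cxcl12 and Cx3cl1 are made without such signals: Cxcl12 guides neural progenitors in the dentate gyrus, and Cx3cl1, or fractalkine, is held on neurons and signals to the microglial receptor Cx3cr1.

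All mice were males of the outbred stock Slc:ddY, aged 6 weeks, in groups of 10. ASO mice took shochu oil, from a sweet potato spirit, by mouth at 2000 mg/kg/day for 15 days and were injected into the cerebral ventricles on day 8 with 10 nmol of Aβ25-35, a short toxic piece of amyloid β, in 5 µL. ACO mice had the same peptide injection but distilled water by mouth, and NCO mice had distilled water by mouth and 5 µL of distilled water in place of the peptide, by a route the labels do not spell out. Hippocampi were taken after a Y-maze test on day 16, and RNA from 5 sets of 2 mice was pooled into 1 sample, and 1 array, per group.

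With 1 pool per group there was no spread between animals to test against, so differences are described by size and no p-value is given. The share of gene probes clear of background was 53.7% on the ASO array, 51.7% on ACO and 50.9% on NCO, and the number of arrays limits the precision. Signals are background-corrected intensities scaled to a common 75th percentile, and all differences are of log2(signal + 50), which draws those of dim probes towards 0. A probe was called dim where its signal to noise was under 2.6, and the difference to such an array is given only as a bound on the same scale. Each bound takes the dim reading as it stands, without allowance for spot error. The only error available is that between spots: for probes printed 10 times, the median SD of the difference over spots was 0.09 for ASO against ACO, 0.10 for ASO against NCO and 0.08 for ACO against NCO. All 7 neuronal markers and 7 of 8 hippocampal markers were above background on every array, and Tdo2 was dim on all 3. No other brain region was measured, so this does not tell hippocampus from other brain tissue. In pooled tissue, fewer cells of a type and less RNA per cell cannot be told apart.

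**Figure D1:**
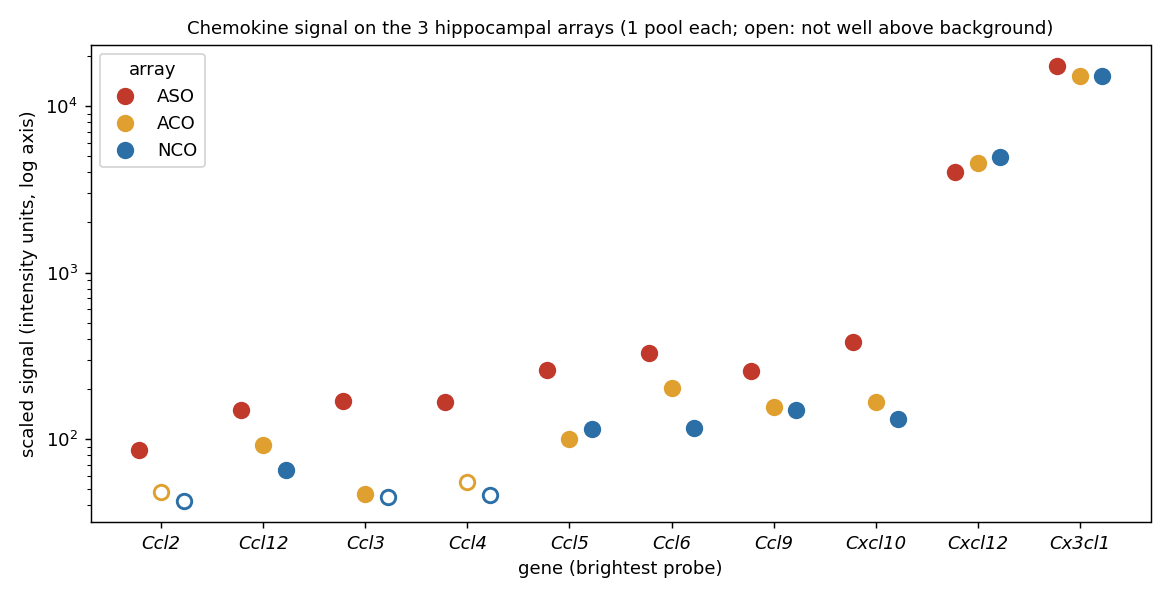
Scaled signal (intensity units, log axis) of the 10 chemokine genes on the ASO, ACO and NCO arrays, 1 point for each pool, with open points where the probe was not well above background. Heights are to be read within a gene, not between genes, since each has its own probe. The ASO point is the highest for 9 genes and the lowest for Cxcl12.

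Ccl2 and Ccl12 are ligands of Ccr2, the receptor that brings monocytes into inflamed tissue, and Ccl12 is a mouse gene without a direct human counterpart. The Ccl2 probe was printed at 10 spots on each array. Its spots read 75.3 to 107 on ASO (median 84.2), 32.7 to 60.2 on ACO (median 48.4) and 32.1 to 53.3 on NCO (median 44.3). No ASO spot overlapped those of the other arrays, while the ACO and NCO spots overlapped widely. All 10 spots were well above background on ASO, against 3 on ACO and 2 on NCO, so Ccl2 as a whole was dim on both of these arrays. Signal on ASO was thus at least 1.38-fold that on ACO and at least 1.46-fold that on NCO. Spot by spot, ASO exceeded ACO at 10 of 10 positions, by 0.47 ± 0.13 (SD over 10 spots of 1 array pair), and NCO at 10 of 10, by 0.55 ± 0.13. ACO exceeded NCO at 5 of 10 positions, by 0.08 ± 0.20, less than the spread between spots. These readings and differences hold for scaling to the 75th percentile. Ccl2 is not given on the spike-in scale described further on, where the median of all genes for ASO against ACO was -0.59.

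**Figure D2:**
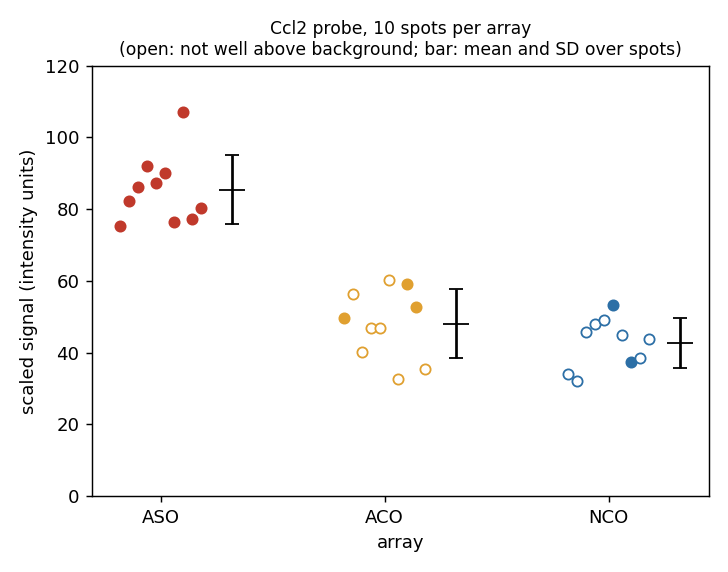
Scaled signal (intensity units) of the Ccl2 probe at each of its 10 spots on the ASO, ACO and NCO arrays, with open points for spots not well above background and bars for the mean and SD over spots. With the arrays scaled to a common 75th percentile, the ASO spots, 75.3 and above, lie clear of all ACO and NCO spots. The spots of an array share 1 RNA pool and are not replicates of a condition.

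Ccl12 gave 150 on ASO, 91.6 on ACO and 65.0 on NCO, above background on every array. The order was graded, with ASO 0.50 above ACO and ACO 0.30 above NCO, both beyond the spot SD of probes of like brightness (0.10 and 0.09). ASO stood 0.80 above NCO, a 1.74-fold difference. On the spike-in scale described further on ASO was 0.04 above ACO and ACO 0.43 above NCO. The authors' deposited table held this probe too, with 116.9 on ASO, 68.1 on ACO and 36.8 on NCO. Those values derive from the same foreground readings, so their order is not separate evidence.

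Ccl3, Ccl4 and Ccl5 are inflammatory chemokines made by activated microglia, macrophages and T cells, and Ccl3 and Ccl5 bind Ccr1. Ccl3 gave 169 on ASO, 46.9 on ACO and 44.8 on NCO. It was dim on NCO, and on ACO its signal to noise of 2.77 was just past the limit. ASO was 1.18 above ACO (2.26-fold), the eighth highest of 13564 genes measured on both arrays, and at least 2.31-fold above NCO. The spots around the Ccl3 probe were themselves 0.09 higher on ASO than on ACO, and 1.09 remained after that was taken off.

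Ccl4 gave 167 on ASO against 55.5 on ACO and 45.9 on NCO, dim on the last 2. ASO was at least 2.06-fold higher than ACO and at least 2.27-fold higher than NCO. With the difference of the surrounding spots taken off, 0.95 remained against ACO and 1.05 against NCO, so these bounds leave out an error of position. Ccl5, which attracts T cells and monocytes, gave 260 on ASO, 100.1 on ACO and 115 on NCO, all above background. ASO stood 1.04 above ACO (2.06-fold) and 0.91 above NCO (1.88-fold), against a spot SD of 0.10 for each comparison. ACO was 0.14 below NCO, somewhat beyond the spot SD of 0.09.

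Ccl6 and Ccl9 are ligands of Ccr1 known from rodents, made by myeloid cells including microglia. Ccl6 gave 330 on ASO, 203 on ACO and 116 on NCO, in even log2 steps with the main scaling. ASO was 0.59 above ACO (barely past the limit of 1.5-fold used here) and 1.19 above NCO (2.29-fold), which placed it 13th of 13453 genes. ACO was 0.61 above NCO (1.52-fold), the only one of the 10 genes past 1.5-fold in that comparison and the 24th of 13310 genes. On the spike-in scale described further on the steps were uneven, with ASO 0.04 above ACO and ACO 0.77 above NCO. The authors' deposited table, derived from the same foreground readings, gave Ccl6 as 274.9 on ASO, 169.9 on ACO and 96.8 on NCO.

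Ccl9 gave 255 on ASO, 156 on ACO and 149 on NCO. ASO was 0.56 above ACO (1.48-fold, just under the limit) and 0.61 above NCO (1.53-fold, just over it). ACO and NCO differed by 0.05, within the spot SD of 0.09. Ccl6 and Ccl9 were thus close in the difference of ASO from ACO (0.59 and 0.56) and apart in that of ACO from NCO (0.61 and 0.05), and this contrast could not be tested with 1 array each.

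Cxcl10 is an interferon-induced ligand of Cxcr3, the receptor of activated T cells and NK cells, and astrocytes and microglia can make it. Its transcript probe gave 382 on ASO, 167 on ACO and 131 on NCO. ASO was 1.00 above ACO (2.00-fold after rounding, marginally short of the 2-fold limit) and 1.26 above NCO (2.39-fold), the tenth highest of 13453 genes. ACO was 0.26 above NCO, against a spot SD of 0.09. A second probe carrying the name Cxcl10, designed on a cDNA clone, was dim on all arrays at 20.8 on ASO, 16.6 on ACO and 23.6 on NCO and gave no information.

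Cxcl12, the constitutive ligand of Cxcr4 and of the scavenging receptor Ackr3, went the other way. Its brighter probe gave 4037 on ASO, 4531 on ACO and 4940 on NCO. ASO was 0.16 below ACO and 0.29 below NCO, and ACO was 0.12 below NCO (0.06 above it with spike-in scaling), against spot SDs of 0.07 to 0.09. When spots were read by their mean rather than median pixel, ASO minus ACO was -0.02, within the spot SD, and ASO minus NCO was -0.13. The second Cxcl12 probe gave 199 on ASO, 231 on ACO and 240 on NCO, hence the same order, with differences of -0.17 for ASO against ACO, -0.22 for ASO against NCO and -0.05 for ACO against NCO. Neither probe reached 1.5-fold. Being lowest on ASO was common, since 43.3% of the 13186 genes measured on all 3 arrays were.

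Cx3cl1, the neuronal ligand of Cx3cr1, gave 17317 on ASO, 15152 on ACO and 15209 on NCO. ACO and NCO differed by -0.01, within the spot SD of 0.07. ASO was 0.19 above both, against spot SDs of 0.08 and 0.09, and after the surroundings of the spot were taken into account 0.10 remained against ACO and 0.08 against NCO. Scaling the arrays to their spike-in controls turned the Cx3cl1 difference to -0.46 between ASO and ACO and -0.28 between ASO and NCO, so its direction rests on the scaling.

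**Figure D3:**
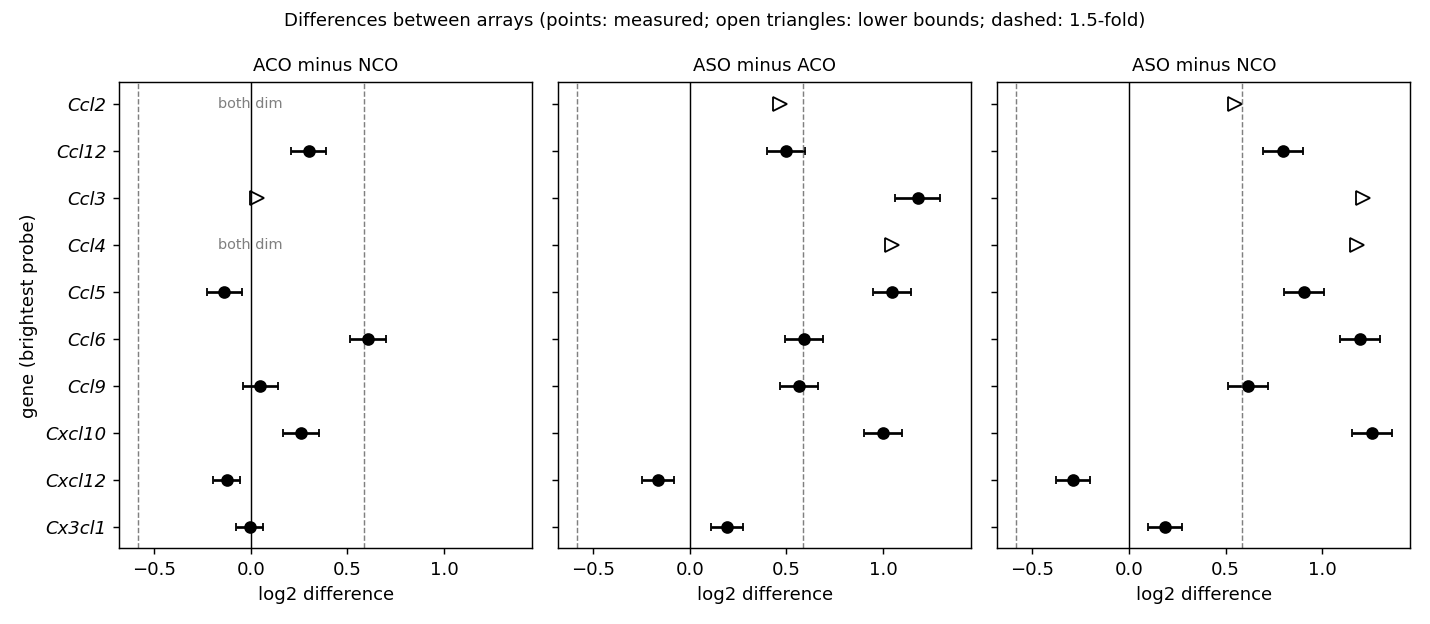
Differences of log2(signal + 50) for the 10 chemokine genes in the comparisons ACO minus NCO, ASO minus ACO and ASO minus NCO, with dashed lines at 1.5-fold. Points are genes measured on both arrays, bars the spot SD of probes of like brightness (not a spread between animals), and open triangles lower bounds where 1 array was dim. For ASO minus ACO the measured values run from -0.16 for Cxcl12 to 1.18 for Ccl3.

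The comparison of ASO with ACO concerns the oil in injected mice. Of the 10 genes, 8 were measured on both arrays, and 4 of them (Ccl3, Ccl5, Ccl6 and Cxcl10) were at least 1.5-fold higher, with none at least 1.5-fold lower. Among all genes measured on those arrays 1.64% were at least 1.5-fold higher and 0.273% at least 1.5-fold lower, shares that depend on the scaling, since on the spike-in scale described further on 10 genes were higher and 6791 lower. The 2 genes past 2-fold were Ccl3 and Ccl5, against 0.184% of all genes, and none was 2-fold lower, against 0.0664%. The median difference of the 8 genes was 0.58, and that of all 13564 genes was -0.01. Ccl2 and Ccl4 could not enter these counts because they were dim on ACO. Ccl4 was higher by a bound past 1.5-fold, as were 2.37% of the 1097 genes above background on 1 of these arrays only, while the bound of Ccl2 fell short of it.

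Set against NCO, 7 genes were measured and 5 (Ccl5, Ccl6, Ccl9, Ccl12 and Cxcl10) were at least 1.5-fold higher on ASO, with none lower, where 1.65% of all genes were that much higher and 0.357% that much lower. Ccl6 and Cxcl10 passed 2-fold, against 0.178% of all genes, and none was 2-fold lower, against 0.0892%. The median was 0.80, and that of all 13453 genes was -0.01. Of the 3 genes dim on NCO, Ccl3 and Ccl4 passed 1.5-fold by their bound, against 2.23% of 1122 such genes, and Ccl2 did not. The comparisons of ASO with ACO and with NCO share the ASO array, and so are not separate evidence.

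The comparison of ACO with NCO concerns the peptide without the oil. Of 7 genes measured, Ccl6 was at least 1.5-fold higher and none was lower, where 0.203% of all genes were that much higher and 0.21% that much lower. None was 2-fold apart in either direction, as 0.0376% of all genes were in each. The median was 0.05, close to the 0.00 of all 13310 genes, with 4 genes above 0 and 3 below. Ccl12 and Cxcl10 ranked 256th and 390th, Ccl9 and Cx3cl1 lay within the spot SD of 0, and Ccl5 and Cxcl12 were below 0. Ccl2 and Ccl4 were dim on both arrays. Ccl3, dim on NCO, had a bound of 1.02-fold towards ACO, a step of 0.03 within the spot SD of 0.11.

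Over the 3 arrays, 4 of the 7 genes (Ccl6, Ccl9, Ccl12 and Cxcl10) stood in the order ASO above ACO above NCO, as did 18.4% of all 13186 genes measured on each. With spot means the step of ACO over NCO was -0.02 for Ccl9 and 0.08 for Cxcl10, each within the spot SD of 0.09, so the order of these 2 genes rests on how spots were read. Counting only that ASO was highest gave 6 of 7, adding Ccl5 and Cx3cl1, where the share of all genes was 36.9%.

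**Figure D4:**
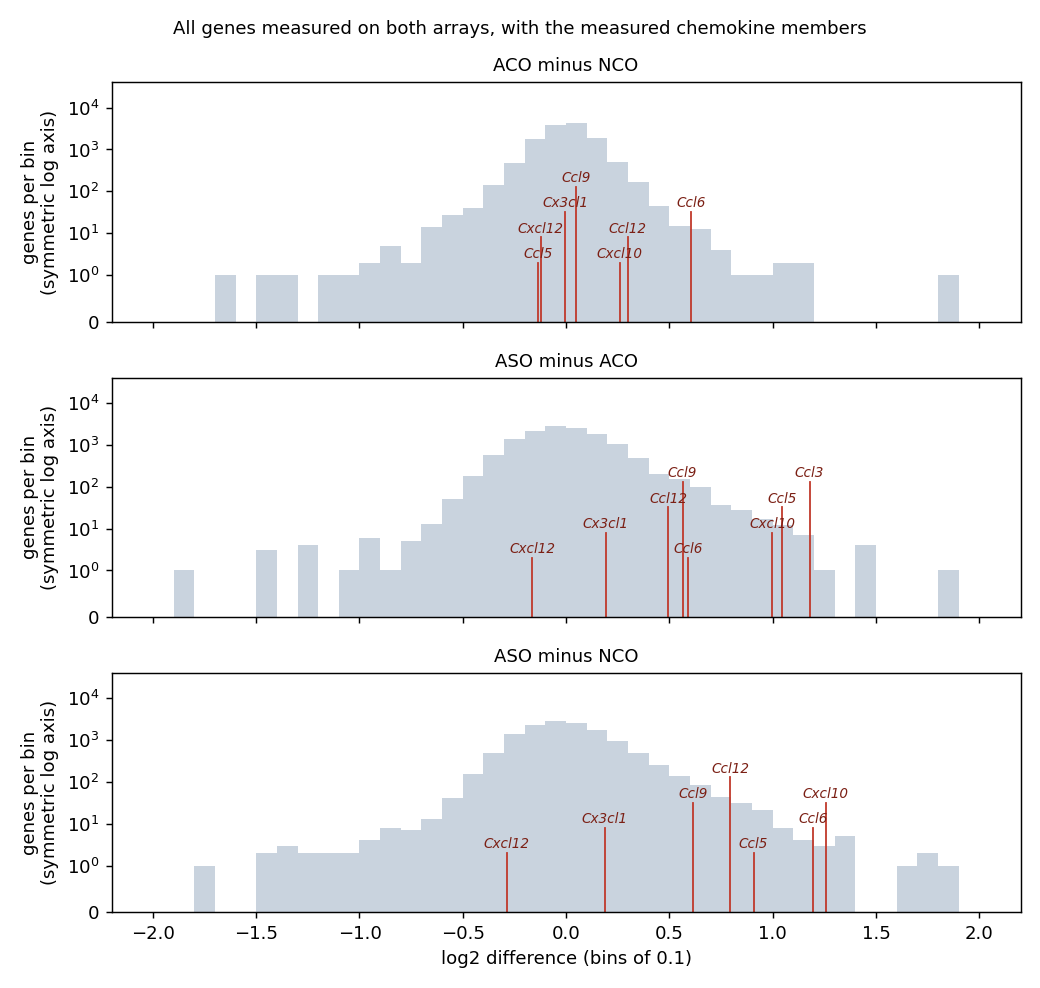
Number of genes (symmetric log axis) in bins of 0.1 of the difference of log2(signal + 50) for all genes measured on both arrays of each comparison, with vertical lines at the measured chemokine genes, whose heights only separate the labels. In both comparisons of the ASO array, Ccl3, Ccl5, Ccl6, Ccl9, Ccl12 and Cxcl10 lie in the right shoulder wherever they are measured, and for ACO minus NCO only Ccl6 passes 1.5-fold.

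Spike-in RNAs, added in the laboratory as controls, gave another scale. The 5 spike-in probes above background on every array were themselves 0.48 higher on ASO than on ACO (median; 0.41 to 0.82) and 0.34 higher than on NCO, and 0.14 lower on ACO than on NCO. Scaling to them moved the median of all genes to -0.59 for ASO against ACO, -0.42 for ASO against NCO and 0.17 for ACO against NCO. On this scale Ccl3 was at 0.76 for ASO against ACO, Ccl5 at 0.55, Cxcl10 at 0.46, Ccl6, Ccl9 and Ccl12 all at 0.04, and Cxcl12 at -0.81. For ASO and NCO, Cxcl10 was at 0.87, Ccl6 at 0.81, Ccl5 at 0.54, Ccl12 at 0.47, Ccl9 at 0.24 and Cxcl12 at -0.75. For ACO against NCO this scaling put Cxcl12 at 0.06 and Cx3cl1 at 0.18, each with its sign turned, and Ccl5 at -0.01. Ccl6 was at 0.77, Ccl12 at 0.43, Cxcl10 at 0.41 and Ccl9 at 0.20. The steps of Ccl6 and Ccl12 thus lay mostly between NCO and ACO on this scale. Higher signal of Ccl6, Ccl9 and Ccl12 on ASO than on ACO is therefore relative to the other genes on these arrays, and so are the list medians that follow. Ccl2 and Ccl4, dim on ACO, are not given on this scale, so their bounds and the Ccl2 spot differences hold for the main scaling only. On the spike-in scale the median for ASO against ACO was -0.50 for the other ligands, -0.54 for receptors, -0.32 for microglial and -0.52 for astrocyte markers, the first and the last 2 with the sign turned, against the -0.59 of all genes. Scaling to the median of each array turned the medians of the other ligands to -0.02, of the shedding enzymes to -0.02 and of receptor signalling to -0.08 for ASO against ACO, where all genes moved to -0.11.

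Several of the genes lie side by side in the genome. In the order of protein-coding genes of the RefSeq annotation of GRCm38.p6, Ccl5, Ccl9, Ccl6, Ccl3 and Ccl4 follow each other on chromosome 11, with no other gene between them. All 5 had more signal on ASO than on ACO, by 0.56 to 1.18 where measured and by a bound of 2.06-fold for Ccl4. Of all genes measured on these 2 arrays, 47.1% were above 0. The size depends on the scaling, since Ccl6 and Ccl9 were at 0.04 on the spike-in scale. Elsewhere on that chromosome Ccl2, Ccl7, Ccl11, Ccl12, Ccl8 and Ccl1 are consecutive. Of these, Ccl7, Ccl11 and Ccl1 were dim on all arrays, and Ccl8 was above background on ASO alone, at least 1.26-fold above ACO and at least 1.16-fold above NCO. Cxcl10 on chromosome 5 is parted by Art3 from Cxcl9, another interferon-induced ligand of Cxcr3. The brighter Cxcl9 probe was also above background on ASO alone, at only 48.6, at least 1.32-fold above NCO and by a smaller bound above ACO. A second Cxcl9 probe was dim on all arrays, at 29.8 on ASO, 29.9 on ACO and 27.8 on NCO. Cx3cl1 on chromosome 8 lies between Ccl22, dim on all arrays, and Ccl17, which gave 315 on ASO, 299 on ACO and 285 on NCO.

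The other chemokine ligands differed little. Of 27 on the array, 15 were dim on all 3 arrays, among them the neutrophil attractants Cxcl1 and Cxcl2. None of the 8 measured on ASO and ACO was 1.5-fold apart, with a median of 0.08, the highest being Cxcl11 at 0.27 (its second probe 0.47) and the lowest Ccl25 at -0.23. Against NCO the median of 9 was 0.13 on ASO, the highest being Ccl27a at 0.33, and the median of 8 was 0.03 on ACO, again with Ccl27a the highest at 0.19. The Ccl27a probes disagreed, since the others gave 0.22 and -0.02 for ASO against NCO, and 0.36 and -0.14 for ACO against NCO. Ccl19, the Ccr7 ligand that guides T cells and dendritic cells, was the exception. It gave 117 on ASO, 126 on ACO and 281 on NCO, 0.99 lower on ASO than on NCO and 0.91 lower on ACO than on NCO. A second Ccl19 probe gave -0.95 and -0.88 for the same comparisons, and another gave -0.34 for ASO against NCO and was dim on ACO. The mouse genome holds near-identical copies of Ccl19, so which copy the probes read is uncertain.

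The receptors described here were dim or less than 1.5-fold apart. Ccr1 and Ccr2, the receptors of Ccl6, Ccl9, Ccl2 and Ccl12, were dim on all 3 arrays, as were Cxcr3 and Cxcr4, the receptors of Cxcl10 and Cxcl12. Cx3cr1 gave 3754 on ASO, 3100 on ACO and 3298 on NCO, with ASO 0.27 above ACO and 0.18 above NCO, and its second probe gave 0.31 and 0.42. Ackr3 gave 419 on ASO, 546 on ACO and 543 on NCO, with ASO 0.35 below ACO and 0.34 below NCO. Of the 24 receptors on the array 6 were measured in each comparison and none was 1.5-fold apart, with medians of -0.01 for ASO against ACO, -0.02 for ASO against NCO and -0.00 for ACO against NCO. The highest and lowest for ACO against NCO were Ccr6 at 0.10 and Ackr2 at -0.10.

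Of the enzymes that release or trim chemokines, 3 of 7 were measured and none was 1.5-fold apart. Ctss, the lysosomal protease that microglia secrete and that can release Cx3cl1 from the membrane, gave 7532 on ASO, 5269 on ACO and 5031 on NCO, with ASO 0.51 above ACO and 0.58 above NCO. Adam10, which sheds Cx3cl1 constitutively, differed by 0.09 for ASO against ACO, 0.12 for ASO against NCO and 0.03 for ACO against NCO. Mmp2, which trims Ccl7 and Cxcl12, differed by -0.08, 0.13 and 0.22 in the same comparisons.

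Among 14 genes of signalling below chemokine receptors, 11 were measured and none was 1.5-fold apart. Rac2, the GTPase of migrating leukocytes and microglia, was the highest on ASO, at 0.36 against ACO and 0.46 against NCO. The inhibitory G protein subunits went apart, with Gnai2 0.27 and Gnai3 -0.38 for ASO against ACO, and 0.43 and -0.35 for ASO against NCO. For ACO against NCO, Gnai2 at 0.16 and Gnb1 at -0.18 were the ends.

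The cytokines that induce chemokines were below what these arrays could measure: Tnf, Il1b, Il6, Ifnb1 and Ifng were dim on all 3, as were Tlr4 and Irf7. Of 21 inducers and transcription factors, 12 were measured for ASO against ACO with a median of 0.07 and none 1.5-fold apart, from Stat2 at -0.18 to Tlr2 at 0.51. Against NCO, 10 were measured on ASO with a median of 0.18, and 2 were at least 1.5-fold higher and none lower, where 1.65% of all genes were that much higher. The count was 1 with scaling to the median, and 0 higher and 1 lower on the spike-in scale. The 2 genes were Tlr2, a receptor for microbial lipoproteins that also responds to amyloid, with 160 on ASO against 79.3 on NCO (0.70), and Irf8, a transcription factor of microglia, with 551 on ASO against 337 on NCO (0.63). For ACO against NCO, 11 were measured with a median of 0.08, none 1.5-fold apart, from Ticam1 at -0.26 to Tlr2 at 0.20.

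**Figure D5:**
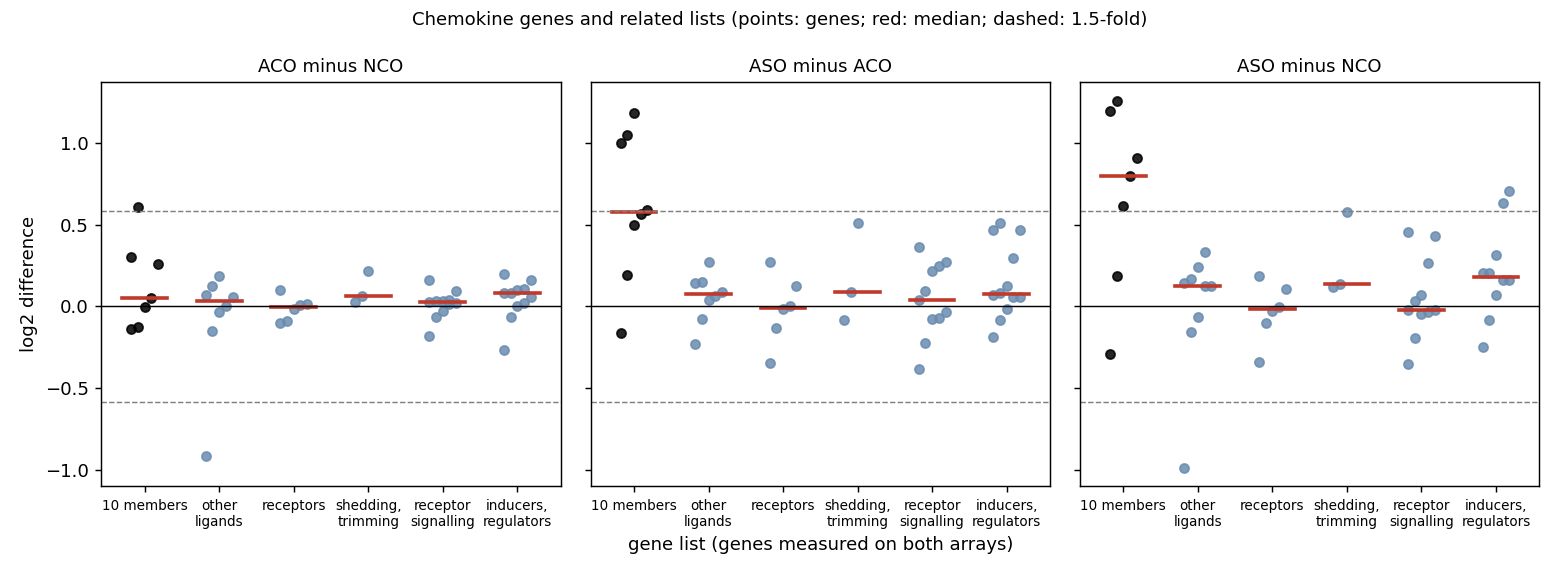
Differences of log2(signal + 50) for the 10 chemokine genes and for related gene lists in each comparison, each point a gene measured on both arrays, red lines the medians and dashed lines 1.5-fold. For ASO minus ACO the medians are 0.58 for the 10 genes and between -0.01 and 0.09 for the other 5 lists, and Ccl19 is the low point among the other ligands for ACO minus NCO and ASO minus NCO.

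Markers of the cells that make or answer chemokines moved with some of these differences. All 11 microglial markers were above background on every array, with summed signals of 42435 on ASO, 34061 on ACO and 38509 on NCO. For ASO against ACO 10 of the 11 were above 0, with a median of 0.32, where 47.1% of all genes were above 0. For ASO against NCO 9 of 11 were above 0, with a median of 0.27, and for ACO against NCO 5 of 11, with a median of -0.03. Itgam, the integrin chain Cd11b, was 1.17 lower on ACO and 0.82 lower on ASO than on NCO, with 4790 on ASO, 3760 on ACO and 8521 on NCO, so that its difference between ACO and NCO was larger than that of the sums. The list holds Cx3cr1, a receptor named above. The differences of ASO from ACO were led by Trem2 at 0.91 and Tyrobp at 0.81, the receptor and adaptor pair of activated microglia, while the homeostatic marker P2ry12 was at -0.40. Gfap, the intermediate filament of reactive astrocytes, was 0.84 higher on ASO than on ACO and than on NCO, and the median of the 7 astrocyte markers was 0.12 in both. Neuronal, endothelial and oligodendrocyte medians for ASO against ACO lay above that of the astrocyte markers and below the 0.32 of the microglial ones. They were 0.18 for 7 neuronal markers (Syt1 at 0.63), 0.16 for 6 endothelial and 0.15 for 6 oligodendrocyte markers. The part of these cells in the chemokine differences was not tested.

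T cell and leukocyte genes were sparse. Of 14 T and NK cell markers 10 were dim on all arrays, including Cd3d, Cd3g, Cd8a and Gzmb. Of the 4 measured, Cd4 was 0.45 higher on ASO than on ACO and 0.44 higher than on NCO, Cd3e 0.40 and 0.21 higher, and Lck and Nkg7 lay between -0.06 and 0.06 in both. The summed signal was 1315 on ASO, 1222 on ACO and 1211 on NCO. Of 9 markers of monocytes and border macrophages, Ccr2, Lyve1 and Cd163 were dim on all arrays, while Ms4a7 was 0.44 higher on ASO than on ACO and 0.43 higher than on NCO. The sums were 823 on ASO, 722 on ACO and 712 on NCO. Of 7 neutrophil markers 5 were dim on all arrays, with sums of 294 on ASO, 370 on ACO and 304 on NCO. S100a9, 1 of the 2 measured, carried that difference: it gave 70.4 on ASO, 143 on ACO and 71.4 on NCO, 0.67 higher on ACO than on NCO and 0.68 lower on ASO than on ACO. Camp, the other one measured, differed by -0.02 for ACO against NCO and 0.15 for ASO against ACO. Hbb-b2, a haemoglobin chain, was 0.93 higher on ASO than on ACO and 0.75 higher than on NCO, while Hba-a1 differed by 0.07 and 0.10.

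Beside the Ccl6 difference of ACO against NCO stands, besides that of S100a9, a difference in choroid plexus genes. All 8 markers were above background, and 7 of 8 were higher on ACO than on NCO, with a median of 0.53, while Ttr was at -0.46. On ASO, 7 of 8 were lower than on ACO, with a median of -0.23, and 7 of 8 were higher than on NCO, with a median of 0.24. The share of all genes above 0 was 51.8% for ACO minus NCO, and 47.1% whether ACO or NCO was subtracted from ASO. The summed signal of the 8 markers, mostly that of Ttr, was 20264 on ASO, 20109 on ACO and 23932 on NCO. Of the measured neutrophil markers S100a9 alone was higher on ACO than on NCO, with Camp at -0.02. Whether this tissue or neutrophils contributed to the Ccl6 signal was not tested.

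For the 5 chemokine genes at least 1.5-fold apart and measured on all 3 arrays, the genes most like them were sought among 9889 genes, by the distance over the differences ACO minus NCO and ASO minus ACO. Nearest to Ccl12 was Aif1, the microglial calcium-binding protein also called Iba1, at a distance of 0.02, with ASO 0.51 above ACO and ACO 0.31 above NCO. Gm4978 and Gm8054 followed at 0.04 each. Nearest to Ccl6 were Pogz at 0.17, Gm3988 at 0.19 and Cd74, the invariant chain of MHC class II, at 0.22. Among the nearest to Ccl9 were Inpp5d, a phosphatase of microglia and blood cells, and Ankhd1, at 0.02 each. Nearest to Ccl5 were LOC270362 at 0.02, Idua at 0.03 and Lepr, the leptin receptor, at 0.06. Nearest to Cxcl10 were Fgf23 at 0.10, Cby1 at 0.14 and Gm12770 at 0.19. With 3 arrays each pattern rests on 2 differences, so many genes fall near any one of them.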

How the data were processed

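Hippocampal RNA was measured on 3 one-colour (Cy3) arrays, 1 pool of 10 mice each, on 1 slide at positions 4 (ASO), 2 (ACO) and 1 (NCO), so slide was no batch between them. Foreground and background medians are intensities that the authors obtained at 532 nm with GenePix Pro 6.1.0.4, without normalization, per the file headers. The authors also deposited GenePix Pro's percent of saturated pixels and its signal to noise score for each spot. The submitters' processing notes list Agilent Feature Extraction, whose signal columns were not used here. The labels name in 1 place an injected group that no sample carries, and ASO was taken as injected from the design text.

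The normexp correction of limma 3.58.1 (R 4.3.3, saddle fit, offset 0) was applied to all 45220 spots of an array. Control spots were left out, each array was scaled to the 75th percentile of its gene spots (factors 0.991 on ASO, 0.949 on ACO and 1.06 on NCO), 50 was added, and spots of a probe were averaged after log2. A gene entered a comparison through its brightest probe above background (median signal to noise of at least 2.6) on both arrays. Probes saturated (at least 50% of pixels) on both arrays were left out, while those saturated on 1 array stayed in. Saturation marked 14 probes on ASO, 5 on ACO and 3 on NCO. A bound is the brighter signal over the dim one, each plus 50, with no allowance for spot error. Differences and counts were computed with pandas 2.3.3 and numpy 2.4.6 (Python 3.11.15), figures with matplotlib 3.10.9, and the scripts were tested on simulated data. Probes were named through a RefSeq table of GRCm38.p6, used for names and gene order: 26581 by accession, 2597 by symbol and 490 by synonym, while 1736 were left with the name in the file and 8025 were unnamed.

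No test was run with 1 array per group, and folds of 1.5 and 2 are size rules. The chemokine genes and all lists were chosen with earlier results of these data known. Named were the 10 chemokine genes, their receptors, genes of the related lists at least 1.5-fold apart or otherwise the highest and lowest, and the 3 genes nearest in pattern, of which 1 receptor and 1 nearest gene are not reported here. Neighbouring genes, dim genes and cell markers named beside results were chosen after their values were seen. A value table deposited by the authors holds intensities of 475 probes, 2 of them of these chemokines. Over 448 single-spot probes a straight line of the foreground median met its columns within 0.05, with slopes of 0.893 on ASO, 0.917 on ACO and 1 on NCO and subtracted values of 43.1, 46.8 and 44.2. Its scale is linear and uncentred, its direction is that of signal, its column medians are 113.3, 97.4 and 116.8 in the same order, and the reason for the slopes is unknown. The alternatives tried were 10 set out beforehand and 1, scaling to spike-in controls, added after seeing the data.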

Additional observations from a re-analysis of the deposited data

How the results depend on the processing

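Each member's difference, the counts past 1.5-fold and the medians were recomputed under 10 alternatives, and under spike-in scaling, which was chosen after seeing the data. The ASO against NCO median became 0.92 with plain background subtraction, 0.64 with spot means and 1.03 with 16 added before log2. That of ASO against ACO became 0.45 with spot means and 0.48 with scaling to the median. The count of genes higher on ACO than on NCO became 0 with spot means and 0 with correction by surrounding spots, since Ccl6 then fell short. Spike-in scaling gave a median of 0.20 between ACO and NCO. Between ASO and ACO it left 1 gene higher (Ccl3) and 1 lower (Cxcl12) with a median of 0.044, and between ASO and NCO 2 higher (Cxcl10 and Ccl6) and 1 lower (Cxcl12) with a median of 0.47. Over the other 10 alternatives and the main setting, Ccl5 and Cxcl10 stayed past 1.5-fold for ASO against ACO (0.88 to 1.25 and 0.88 to 1.13), as did Ccl3 in the 10 settings that measured it (1.01 to 1.56). It was dim on ACO at a signal to noise of 4. Ccl6 passed 1.5-fold in 7 of 11 settings for ASO against ACO and in 9 of 11 for ACO against NCO, and Ccl9 in 8 of 11 for ASO against NCO. Of the values for single genes under these 10 alternatives, 184 moved by less than the spot SD and 35 by more, and all 22 under spike-in scaling moved by more. With spot means Cxcl12 was at -0.02 for ASO and ACO, within the spot SD, and at -0.13 for ASO and NCO. Scaling to the median put 113 genes of the array higher and 110 lower for ASO against ACO, against 222 and 37 with the main scaling, and 144 and 83 for ASO against NCO, against 222 and 48. The median of all genes then lay at -0.11 for ASO and ACO. Spike-in scaling put 10 genes higher and 6791 lower between ASO and ACO, and 29 higher and 2798 lower between ASO and NCO. No paired analysis was possible because each group has 1 array. Depth of signal limits Ccl2, Ccl3 and Ccl4, which were near background outside ASO.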
